A study of Mus musculus with 3 samples.

Results

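The regions of open chromatin that SOX2-OFF cells and wild-type CEpiLC had in common are described here. ATAC-seq inserts sequencing adapters into accessible DNA with a transposase, so that places where nucleosomes are absent, such as active promoters and enhancers, accumulate fragments and are called as peaks. The rows of the SOX2-OFF and CEpiLC broad peak lists were merged, and the members were the merged regions covered by both lists on chromosomes 1 to 19 other than 6, 8 and 11. This gave 57299 members of 121384 merged regions on these 16 chromosomes. The members were thus chosen by the measured peak calls of both samples, and the shifts of rank and width below come from the same calls, so they are given as descriptions with no test.

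All 3 samples of the study were in vitro epiblast-like cells of the mouse embryonic stem (ES) cell line HM1 (129), taken at 72 h (day 3), with 1 sample a group. The study's methods name the line HM1 TetON, which carries the doxycycline transactivator at Rosa26 and also served as the wild-type cells. Each was differentiated with bFGF (10 ng/ml) and LGK974 (5 µM), which blocks WNT secretion, and received CHIR99021, an activator of WNT signalling, from day 2. CEpiLC, caudal epiblast-like cells, were wild-type and had no doxycycline. SOX2-OFF and SOX2-ON cells were Sox2-/- and carried a doxycycline-inducible Sox2 transgene at Hprt, in 1 clonal line kept in doxycycline (1 µg/ml) as ES cells. The drug was withdrawn during differentiation in SOX2-OFF and maintained in SOX2-ON. SOX2-OFF and CEpiLC therefore differed at once in Sox2 genotype, transgene, clone and earlier doxycycline, and these cannot be told apart. ES cells had been grown on fibroblast feeders. In bulk samples, a change in a share of the cells and a change in every cell cannot be told apart either.

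SOX2 is a transcription factor that keeps ES cells pluripotent and later marks neural progenitors. In the caudal epiblast it is present at low level together with T and the CDX factors, in cells that can give spinal cord or paraxial mesoderm. WNT acts there through TCF/LEF factors, whereas NODAL, a TGFβ-family ligand, acts through activin receptors, SMAD2, SMAD3 and FOXH1 in the early primitive streak and endoderm. The comparison asks how accessibility at sites used in both states differed in strength between SOX2-OFF and wild-type CEpiLC.

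Strength was taken from the −log10 p that the peak caller gave the strongest row of each list in the region, turned into a percentile among the 57299 members of that list (100 strongest). The shift is the SOX2-OFF percentile minus the CEpiLC percentile, and a shift of 25 points or more was called. Percentiles were used because the lists differed in scale. The median member had a fold enrichment of 1.83 in SOX2-OFF and 1.85 in CEpiLC, but a −log10 p of 8.10 and 5.41. Read pileups computed back from these values had a median of 95 reads at the 50th percentile of SOX2-OFF and 56.9 at that of CEpiLC. At the edge of the selection, the weakest member had a −log10 q of 1.00 in SOX2-OFF and 1.02 in CEpiLC. The 29016 SOX2-OFF rows left out, which had no CEpiLC row, had a median −log10 p of 3.43. The 35069 CEpiLC rows with no SOX2-OFF row had one of 3.39. Some rows left out were strong, with a −log10 q of up to 286 in SOX2-OFF and 619 in CEpiLC.

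Most members kept their place. The shift lay under 10 points in either direction at 33548 members, or 58.5%, and the middle of the distribution ran from −7.84 (25th percentile) to 7.10 (75th percentile). The percentiles in the 2 lists had a Spearman correlation of 0.85 across the 57299 members. Regions are not replicates, and both lists share base composition and mappability. A total of 3679 members, 6.42%, were higher in SOX2-OFF by at least 25 points. Another 3481, 6.08%, were higher in CEpiLC. By chromosome, the median shift ran from −0.65 on chromosome 14 to 0.40 on chromosome 2. The shares called for SOX2-OFF and for CEpiLC were 7.71% and 5.13% on chromosome 1 and 4.98% and 7.39% on chromosome 17.

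**Figure D1:**
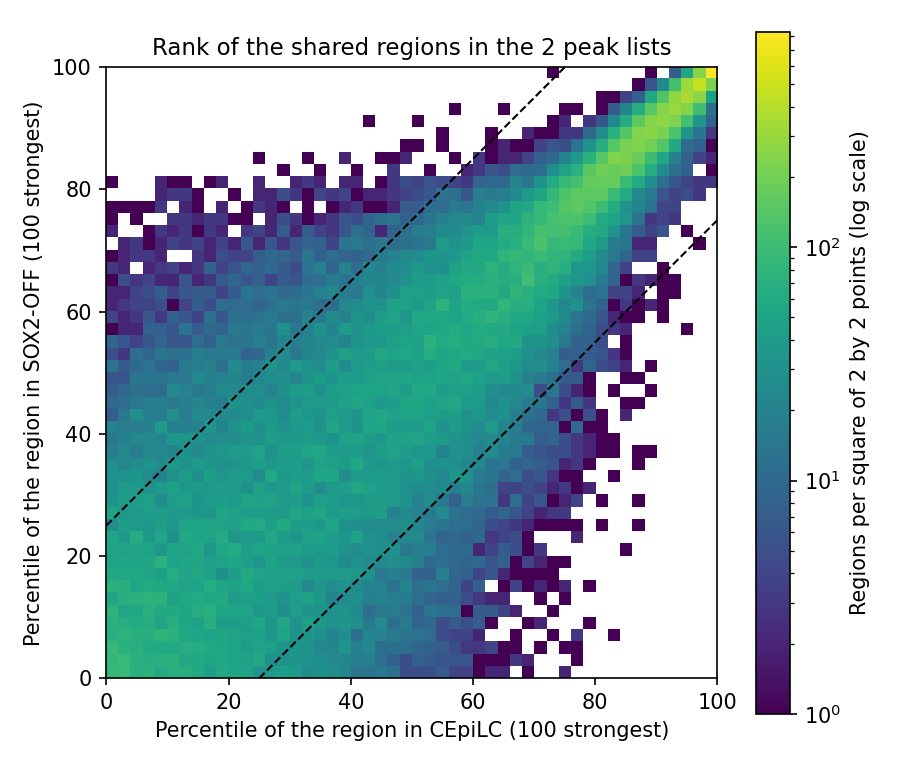
Each square counts regions (log color scale) by their percentile in CEpiLC (x axis) and in SOX2-OFF (y axis), where 100 is the strongest of the 57299 shared regions; dashed lines mark a shift of 25 percentile points. Regions crowd onto the diagonal at high percentiles and spread between the lines and beyond them at low percentiles, with 3679 above the upper line and 3481 below the lower.

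Called shifts lay almost all at weak and middling regions. Among the 11183 members with a mean percentile of at least 80, the SD of the shift across regions was 3.53 points, and 1 was called in each direction. A mean percentile near either end of the scale leaves little room for a shift, so these values are in part set by the scale. Among the 13443 members with a mean percentile between 20 and 40 the SD was 22.9 points, and 14.7% were called for SOX2-OFF and 14.6% for CEpiLC. Counting error followed the same course. When the read pileup of a region was moved by its own square root, the CEpiLC percentile moved by 26.4 points at the 50th percentile and by 3.21 at the 90th. The shift exceeded 2 combined counting errors at 260 (7.07%) of the members called for SOX2-OFF and at 362 (10.4%) of those called for CEpiLC. This error is that of a pileup at 1 position. The values of a broad peak are averages along it, so it is an upper guide, and it covers counting error only. Single weak regions are therefore not resolved by these data, and the text below leans on strong regions, on regions in groups and on SOX2-ON as a value that the selection did not use.

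Promoters hardly moved. Members within 1 kb of the start of a protein-coding gene numbered 12695, or 22.2% of all members, but 4.32% (95% Wilson interval 3.71 to 5.03) of the regions higher in SOX2-OFF and 5.17% (4.48 to 5.96) of those higher in CEpiLC. The SD of the shift was 8.06 points at promoters and 17.7 points at intergenic members. Promoters were also the strongest class, making up 78.7% of members with a mean percentile of at least 80. Few shifts of any kind were called there, and the scale leaves little room for them. Intergenic members made up 40.7% of all members, 51.7% of the regions higher in SOX2-OFF and 49.6% of those higher in CEpiLC. The median distance to a coding start was 24.7 kb for the SOX2-OFF side and 24.1 kb for the CEpiLC side, against 14 kb for all members.

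**Figure D2:**
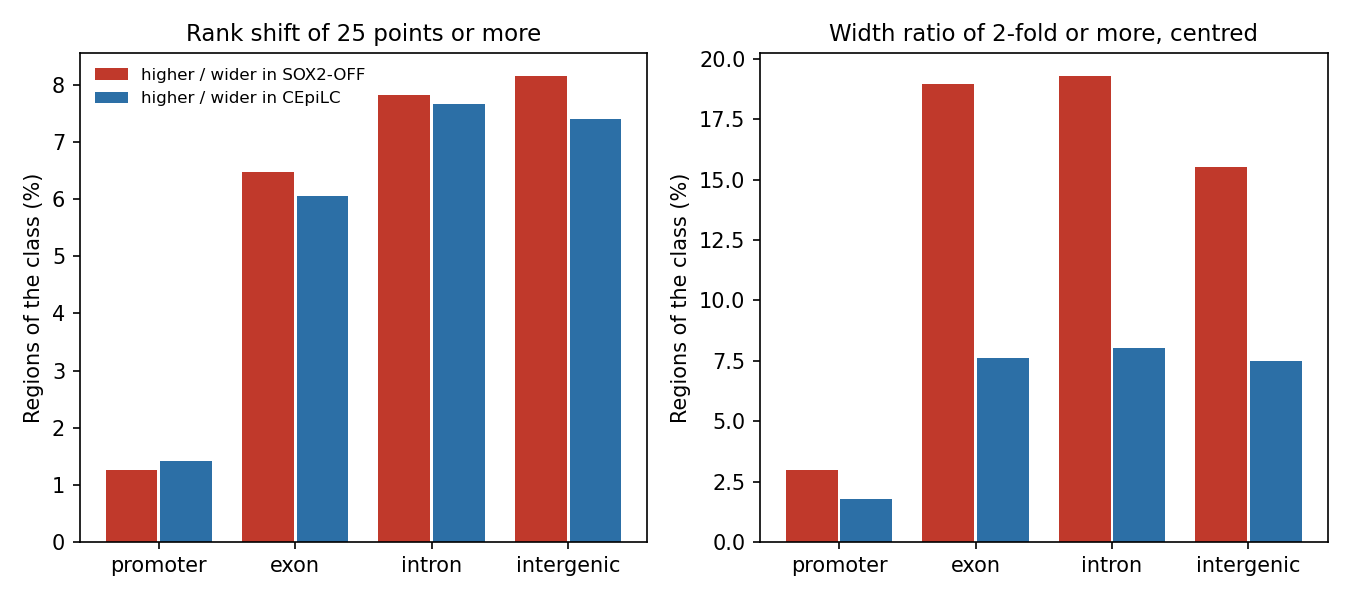
Bars give the percent of shared regions in each position class (12695 promoter, 3535 exon, 17727 intron and 23342 intergenic regions) that were called higher (left) or wider (right) in SOX2-OFF (red) or CEpiLC (blue). In each direction separately, between 1.25% and 1.42% of promoters had a called rank shift, against 7.40% to 8.15% of intergenic regions.

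The width of the regions changed in a lopsided manner. Width was the number of bases of a region covered by each list. Its median was 992 bp in SOX2-OFF and 782 bp in CEpiLC, and 64.4% of members were wider in SOX2-OFF. The median ratio was 1.12. It was 1.27 among members with a mean percentile under 20 and 1.02 among those of at least 80, so the excess width lay at weak regions. The narrowest row was 196 bp in the SOX2-OFF list and 149 bp in the CEpiLC list, and the part of depth and of the caller's settings in the ratio was not tested. With the log2 ratio centred on its median, 8086 members (14.1%) were at least 2-fold wider in SOX2-OFF and 3672 (6.41%) at least 2-fold wider in CEpiLC. Of the regions higher in rank in SOX2-OFF, 32.4% were also called wider there and 3.37% wider in CEpiLC. Of those higher in rank in CEpiLC, 18.4% were wider there and 12.0% wider in SOX2-OFF. Promoters were wider by 2-fold in SOX2-OFF at 2.96% and in CEpiLC at 1.77%, whereas intronic regions were so at 19.3% and 8.04%.

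SOX2-ON, the same clone kept in doxycycline, gave a value that took no part in the selection. A SOX2-ON row covered 78.2% of all members, 74.5% (95% Wilson interval 73.1 to 75.9) of the regions higher in SOX2-OFF and 61.2% (59.5 to 62.8) of those higher in CEpiLC. SOX2-ON percentiles, here and below, are ranks among the 44819 covered members and not among all 57299. They are thus not on the same scale as the SOX2-OFF and CEpiLC percentiles beside them. The median SOX2-ON percentile was 37.0 for the SOX2-OFF side and 23.6 for the CEpiLC side. Both sides had similar strengths in the lists that chose them, with a median mean percentile of 33.6 and 32.0. SOX2-ON thus ranked the regions higher in SOX2-OFF above those higher in CEpiLC, although doxycycline kept Sox2 expressed in it. SOX2-ON shares its clone with SOX2-OFF. CEpiLC percentiles also had the larger counting error, 26.4 points against 11.5 in SOX2-OFF at the 50th percentile. The parts of the clone and of this error in the order and in the coverage were not tested.

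The strongest regions on the SOX2-OFF side were of a particular kind. A total of 218 members were higher in SOX2-OFF by at least 25 points and at or above the 75th percentile there, and 184 were their counterparts in CEpiLC. The reference assembly marks interspersed and simple repeats as masked sequence. In the central 200 bases, over 50% of the letters were masked at 109 of the 218 and at 27 of the 184 (14.7%), against 8.75% of all members. The 10 largest shifts of the SOX2-OFF side all lay outside promoters, and 9 of them were over 50% masked.

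Looking for letters that these 218 regions had in common, the 20-base stretch found in more of them than any other within the central 600 bases (either strand) was taken, and the search was repeated on the rest. In all, 3 such stretches are described here, held by 31, 15 and 12 of the 218. They were chosen on these values after the shifts were known. The first is shown in capitals within 100 bases of the 4 regions that held it with the largest shifts, each read from GRCm38 (mm10) in the orientation of the stretch, because these copies are the strongest named examples of the shift.

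Near Cacnb2, chr2:14727234-14727333, minus strand: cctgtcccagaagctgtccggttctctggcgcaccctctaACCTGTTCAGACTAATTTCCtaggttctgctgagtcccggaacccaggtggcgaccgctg
Near Lrrc40, chr3:158101847-158101946, plus strand: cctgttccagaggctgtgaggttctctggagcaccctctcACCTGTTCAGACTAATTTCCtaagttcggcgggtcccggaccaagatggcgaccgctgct
Near Zbbx, chr3:74471041-74471140, minus strand: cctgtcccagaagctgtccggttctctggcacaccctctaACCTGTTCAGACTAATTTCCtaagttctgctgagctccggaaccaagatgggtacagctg
Near Fsip2, chr2:82888689-82888788, plus strand: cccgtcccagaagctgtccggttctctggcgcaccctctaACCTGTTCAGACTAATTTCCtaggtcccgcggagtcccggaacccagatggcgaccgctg

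Beyond the capitals, 71 of the 80 other letters at Zbbx, 75 at Fsip2 and 50 at Lrrc40 were those of Cacnb2 at the same place, counted without gaps. The Cacnb2 region, in an intron 96.7 kb upstream of the nearest coding start, that of a calcium channel subunit gene, was at percentile 75.8 in SOX2-OFF, 0.59 in CEpiLC and 72.4 in SOX2-ON. At Lrrc40, 65.1 kb from the start, the percentiles were 81.8, 8.45 and 76.8 in the same order. The Zbbx region had 76.9, 5.66 and 68.6, and the Fsip2 region 79.5, 10.4 and 72.1. In each of the 4, SOX2-ON stood with SOX2-OFF and not with CEpiLC.

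A total of 154 members on all 16 chromosomes held the first stretch, 137 of them over 50% masked and none at a promoter. Of these, 94 were called higher in SOX2-OFF and 1 higher in CEpiLC. Leaving aside the 31 from which the stretch was chosen, 117 of the other 123 had a shift above 0, with a median of 26.0 points, and 63 were called for SOX2-OFF. The median percentile of the 154 was 68.5 in SOX2-OFF and 35.1 in CEpiLC. A SOX2-ON row covered 152 of them, at a median percentile of 64.5. Their median width was 806 bp in SOX2-OFF and 345 bp in CEpiLC. The same stretch was far more common among the rows that the lists did not share. It was held by 622 of the 29016 SOX2-OFF rows without a CEpiLC row and by 11 of the 35069 CEpiLC rows without a SOX2-OFF row. Over all rows on the 16 chromosomes it was held by 779 of 86563 in SOX2-OFF, by 938 of 85388 in SOX2-ON and by 165 of 95025 in CEpiLC. These copies were thus peaks in both lists of the transgenic clone and mostly not in the wild-type list. How reads that match several copies were placed could bear on single copies, and its part was not tested.

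The other 2 stretches behaved otherwise in SOX2-ON. The second, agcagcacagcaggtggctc, was held by 69 members, of which 26 were called for SOX2-OFF and 0 for CEpiLC. Among the 54 that were not used to choose it, 47 had a shift above 0. The median percentile of the 69 was 79.3 in SOX2-OFF and 57.0 in CEpiLC. A SOX2-ON row covered 52 of them, at a median percentile of 44.7. The third, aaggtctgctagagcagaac, was held by 68 members, all over 50% masked, with 28 called for SOX2-OFF and 0 for CEpiLC, and 53 of the 56 not used to choose it had a shift above 0. The medians were 75.4 in SOX2-OFF and 51.7 in CEpiLC, and SOX2-ON covered 36 of the 68 at a median percentile of 42.9. In the unshared rows the second stretch was found in 21 rows of SOX2-OFF and 0 of CEpiLC, and the third in 36 and 0. With all 3 lists ranked among the same 44819 members, the 52 covered holders of the second stretch had medians of 75.1 in SOX2-OFF, 55.4 in CEpiLC and 44.7 in SOX2-ON, and all 52 ranked higher in SOX2-OFF than in SOX2-ON. The 36 of the third had 72.9, 44.9 and 42.9, and 29 of them ranked higher in SOX2-OFF than in SOX2-ON. Ranked in this manner, the 152 holders of the first stretch had 61.1, 26.1 and 64.5, and 64 of them ranked higher in SOX2-OFF than in SOX2-ON. Together the 3 stretches marked 291 members, 148 of them called for SOX2-OFF and 1 for CEpiLC, and 58 of the 218 strong regions.

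**Figure D3:**
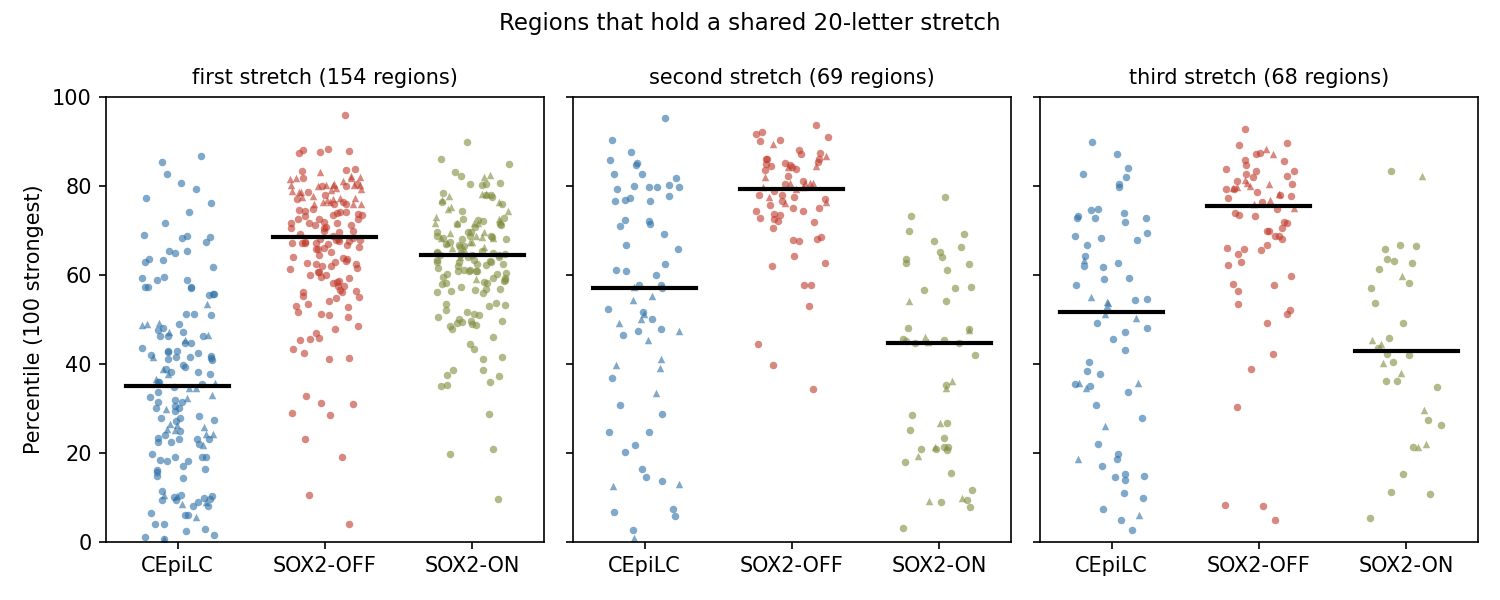
Points are the percentiles (y axis, 100 strongest) of shared regions holding the first (154 regions), the second (69) or the third (68) 20-base stretch, in CEpiLC, SOX2-OFF and, where covered and among the 44819 covered regions, SOX2-ON; triangles are the strong regions from which the stretch was chosen, circles the others, and bars the medians. SOX2-OFF medians (68.5, 79.3 and 75.4) lie above those of CEpiLC in every panel, and SOX2-ON is close to SOX2-OFF in the first panel alone (64.5).

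On the CEpiLC side the sets found were smaller or mixed. The same search over the 184 strong regions gave stretches held by 6, 553 and 10 members in all. The 6 holders of the first were all among the strong regions that chose it and hence all called for CEpiLC, and 5 were over 50% masked. It was in 5 rows of the whole SOX2-OFF list and in 5 of the CEpiLC list. The second is a run of CA letters, and 37 of its 553 holders were called for SOX2-OFF and 29 for CEpiLC. Of the 10 holders of the third, 3 were called for CEpiLC and 1 for SOX2-OFF.

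Other large shifts of the SOX2-OFF side included the region with the largest of all, 759 kb from the start of Naaladl2. It had a fold enrichment of 3.38 in SOX2-OFF, 1.61 in CEpiLC and 3.99 in SOX2-ON, and percentiles of 81.6 in SOX2-OFF and 1.92 in CEpiLC. The second largest lay 13.7 kb upstream of 4933407L21Rik, with fold enrichments of 2.64, 1.59 and 1.55 in SOX2-OFF, CEpiLC and SOX2-ON, a shift of 76.6 points and a width of 728 bp against 335 bp. Its center is printed because it holds the second stretch on the opposite strand. The capitals mark a ZIC match and, after it, a TCF/LEF match.

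Near 4933407L21Rik, chr1:85914477-85914676, plus strand: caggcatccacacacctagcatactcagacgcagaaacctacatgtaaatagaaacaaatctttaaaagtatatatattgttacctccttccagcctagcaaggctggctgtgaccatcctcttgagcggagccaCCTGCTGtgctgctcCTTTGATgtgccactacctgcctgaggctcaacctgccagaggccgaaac

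This region was strong in SOX2-OFF alone among the 3 lists. The remaining named regions lay near Them7, Tyrp1, Dsc3, Tmx3 and Flrt2, with shifts of 69.6 to 74.5 points. SOX2-ON had no row at 2 of them, near Them7 and Dsc3.

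Of the 10 largest shifts of the CEpiLC side, 1 was over 50% masked, near Hspa13. The first was an intronic region, 35.8 kb upstream of the start of Upb1, which encodes an enzyme of pyrimidine breakdown. Its fold enrichment was 2.89 in CEpiLC, 1.49 in SOX2-OFF and 1.77 in SOX2-ON, and its percentile 83.2 in CEpiLC and 7.06 in SOX2-OFF. The seventh lay in an intron of Acvr1b, the type I receptor of activin and NODAL, 6.92 kb downstream of the start. It had fold enrichments of 2.40 in CEpiLC, 1.48 in SOX2-OFF and 1.84 in SOX2-ON and percentiles of 79.2, 9.48 and 36.1. Its shift of −69.7 points was the largest of any region of the NODAL list and exceeded 2 counting errors, of 17.2 points each. The centers of both regions are printed because CEpiLC ranked them high and each holds a match to the CDX/HOX motif TTTATNG. They were thus picked in part for this match. The centers near Gm26897 and Hspa13, with larger shifts than the Acvr1b region, hold no CDX/HOX match. The same is true of the regions called for CEpiLC near Nodal, Msgn1 and Sox2. Of all regions higher in CEpiLC and over 1 kb from any gene start, 9.01% held such a match. Capitals mark, in order, AP-1, CDX/HOX and OTX/GSC matches near Upb1, and 2 CDX/HOX matches on the opposite strand in Acvr1b. SOX, TEAD, ETS, NRF1 and CTCF matches are left in lower case in the centers printed here. By the motifs defined below, the Upb1 center also holds an ETS and a TEAD match, and the Acvr1b center 2 SOX matches.

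Near Upb1, chr10:75364948-75365147, plus strand: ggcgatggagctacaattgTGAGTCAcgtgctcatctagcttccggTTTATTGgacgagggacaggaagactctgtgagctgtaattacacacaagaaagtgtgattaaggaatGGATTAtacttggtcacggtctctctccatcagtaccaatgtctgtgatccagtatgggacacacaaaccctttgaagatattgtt
In Acvr1b, chr15:101181182-101181381, plus strand: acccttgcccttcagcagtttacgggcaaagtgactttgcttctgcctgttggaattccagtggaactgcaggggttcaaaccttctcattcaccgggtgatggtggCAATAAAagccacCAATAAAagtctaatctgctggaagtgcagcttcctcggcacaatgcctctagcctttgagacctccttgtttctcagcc

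The other 8 named regions of this side lay near Gm26897, Hspa13, Csf3r, Sgip1, Hebp2, Laptm4a, Ulk4 and Hsph1, with shifts of −63.7 to −75.6 points. Near Hsph1, a heat shock protein gene, the region was 5.11 kb upstream of the start and had percentiles of 78.8 in CEpiLC and 15.1 in SOX2-OFF. SOX2-ON had no row at 3 of the 8, those near Gm26897, Hspa13 and Ulk4.

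Among strong regions, the largest gain of width in SOX2-OFF lay near Zfp322a, 2672 bp against 217 bp in CEpiLC, followed by regions near Zfp989 and Zfp979, both zinc finger genes of chromosome 4, at 1832 against 150 bp and 1748 against 158 bp. The CEpiLC widths of the latter pair were close to the narrowest row of the CEpiLC list, 149 bp. At this pair the narrow CEpiLC peak ranked higher, with shifts of −24.9 and −16.0 points. A region near Fam107a did likewise (2887 against 312 bp, shift −38.2). In CEpiLC the largest gain was 1.21 kb upstream of Pla2g1b, a secreted phospholipase gene, at 1821 bp against 262 bp in SOX2-OFF. Regions near Selenop, Sema4d, Csf3r and Laptm4a followed, at 1247 to 2170 bp in CEpiLC and 252 to 473 bp in SOX2-OFF. All 5 of these also ranked higher in CEpiLC, by 32.3 to 71.8 points.

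Motif matches were counted in the central 200 bases of the 39842 members over 1 kb from any gene start, on both strands. Searched letters were ACAANG (the core bound by the SOX family), CTTTGAT (the site of the WNT effectors TCF/LEF), AGGTGTGA (the T-box site of factors such as T and EOMES) and TTTATNG (the CDX and posterior HOX site). Signal effectors and lineage factors were looked for as TGTGGATT (the FOXH1 site), TGTTTAC (the core of forkhead or FOX factors), AGATAA (the GATA site), GGATTA (the site of OTX and GSC) and ATTTGCAT (the octamer of POU factors). The remaining letters were GGGTGTGG (the KLF site), CAGCAGG (the ZIC site), TGANTCA (the AP-1 site), GGAATG (the TEAD site) and CCGGAAG (the ETS site), and NRF1 and CTCF were searched by longer patterns. Some can share letters, such as SOX with TCF/LEF, and a match is a description of the letters and not of binding.

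CDX/HOX matches were more frequent toward CEpiLC. They were found in 9.01% (95% Wilson interval 8.04 to 10.1) of the 3029 distal regions higher in CEpiLC, in 5.93% (5.17 to 6.79) of the 3255 higher in SOX2-OFF and in 6.80% of all. CDX1 and CDX2 give cells of the caudal epiblast their posterior identity. With the regions divided by GC content, the shares of the CEpiLC and SOX2-OFF sides were 15% and 9.86% at low, 9.31% and 5.03% at middle and 3.63% and 1.04% at high GC, so the order was the same at each.

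AP-1 matches followed the opposite order, at 8.94% (8.01 to 9.97) of the SOX2-OFF side, 5.55% (4.79 to 6.42) of the CEpiLC side and 7.11% of all. TCF/LEF matches, the letters of the WNT effectors, were in 5.56% (4.82 to 6.40) of the SOX2-OFF side, 3.80% (3.17 to 4.54) of the CEpiLC side and 4.00% of all. For GATA, whose factors act in endoderm and mesoderm, the shares were 11.2% (10.1 to 12.3), 7.99% (7.08 to 9.01) and 8.45%. For TEAD they were 14.7% (13.5 to 16), 12.0% (10.9 to 13.2) and 12.0%. The median GC content was 49.5% on the SOX2-OFF side, 51.5% on the CEpiLC side and 51.0% over all. The GATA difference was not seen at high GC, with 4.06% and 4.29%. AP-1 kept its order at each level of GC, with overlapping intervals at low GC. TEAD kept its order too, but with overlapping intervals at each level. TCF/LEF matches were in 6.90% (5.65 to 8.40) of the SOX2-OFF side and 5.58% (4.27 to 7.26) of the CEpiLC side at low, 6.24% (4.94 to 7.85) and 3.65% (2.67 to 4.97) at middle and 2.67% (1.78 to 3.97) and 2.42% (1.66 to 3.53) at high GC. Their intervals overlapped at each level, narrowly at middle GC.

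The SOX core itself was little different, at 37.0% (35.3 to 38.7) of the SOX2-OFF side, 33.8% (32.2 to 35.5) of the CEpiLC side and 35.4% of all. It is short and common, so it can resolve little. T-box matches were at 1.81% and 1.45% with overlapping intervals, and FOXH1 and POU matches were too few to separate the sides. Intervals also overlapped for FOX matches, at 3.44% of the SOX2-OFF side and 2.51% of the CEpiLC side, and for OTX/GSC matches, at 6.51% and 5.15%.

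**Figure D4:**
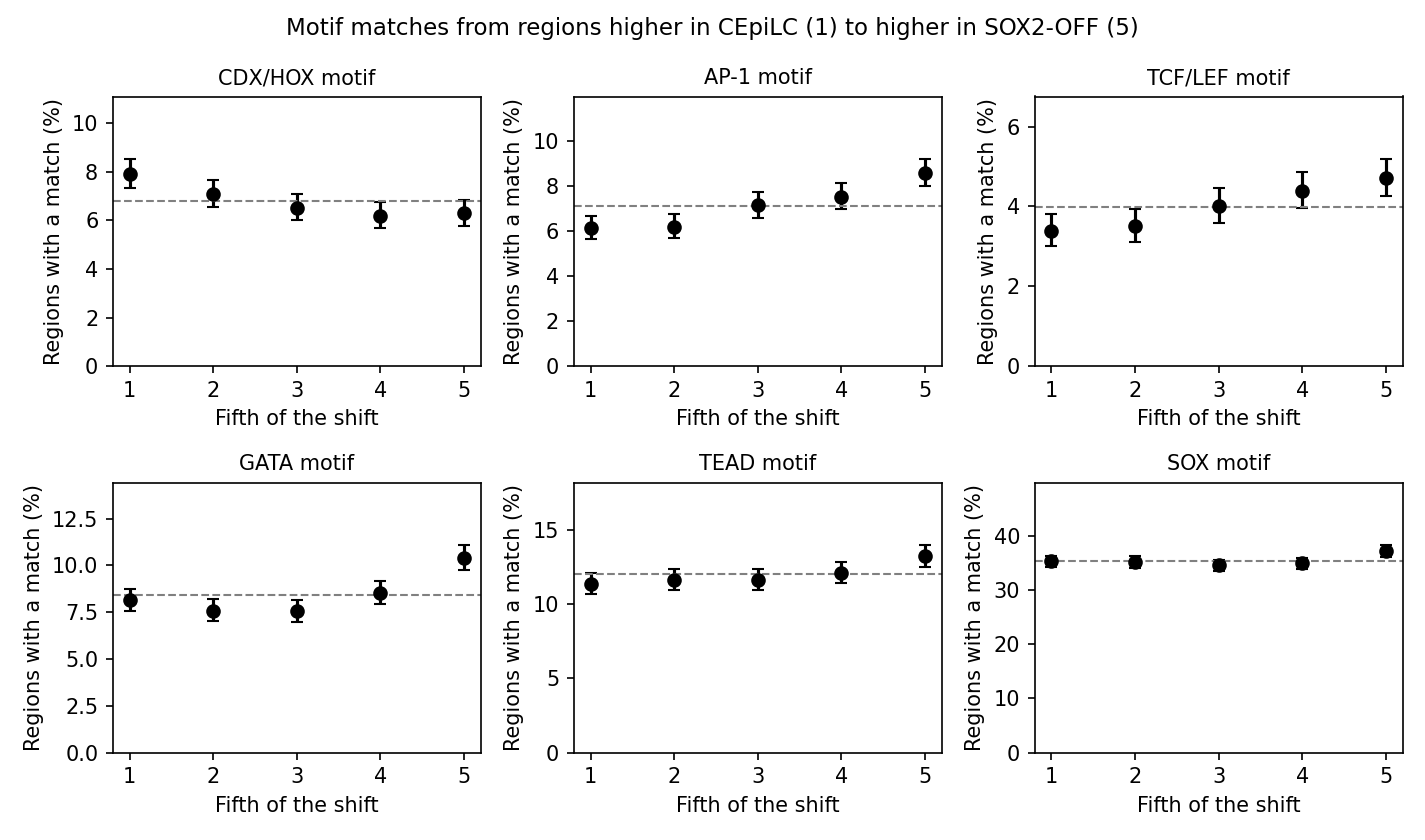
Percent of the 39842 distal regions with a motif match (y axis, from 0) in 5 equal bins of the shift (x axis), from regions higher in CEpiLC (1) to regions higher in SOX2-OFF (5); bars are 95% Wilson intervals and dashed lines the share over all regions. CDX/HOX matches go from 7.92% in bin 1 to 6.30% in bin 5, and AP-1 matches from 6.14% to 8.57%.

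Genes of the streak, the caudal epiblast and related programs were described by lists. A member was assigned to the nearest coding gene within 100 kb. Each list was read beside the 6.42% of all members called for SOX2-OFF and the 6.08% called for CEpiLC. Over the 50403 members within 100 kb, the closer base for a list, these shares were 5.88% and 5.72%.

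In the NODAL pathway, 10 of 93 members (10.8%) were called for SOX2-OFF and 4 (4.30%) for CEpiLC, and the median shift was 3.27 points. With a −log10 q of at least 2 asked of both lists, 3.70% were called for SOX2-OFF, so this share rested on weak regions. The inhibitors carried most of the former. The largest was 9.86 kb upstream of Lefty1, a secreted NODAL antagonist, at chr1:180924528-180926098. There the fold enrichment was 2.42 in SOX2-OFF, 1.61 in CEpiLC and 1.95 in SOX2-ON, and the percentile 75.7, 11.6 and 43.5. The region was 1571 bp wide in SOX2-OFF and 253 bp in CEpiLC. Its shift of 64.1 points exceeded 2 counting errors of 24.3 points, the only member of the list on this side that did so. The Lefty1 promoter had a shift of 4.65 points. Smad7, an inhibitory SMAD, accounted for 5 of the 10 called regions, of 21 members near it, with none called for CEpiLC. At the largest, 6.40 kb upstream, the percentiles were 46.0 in SOX2-OFF, 0.18 in CEpiLC and 57.9 in SOX2-ON. Pmepa1, a target and inhibitor of TGFβ signalling, had 2 called regions, and Acvr2b, a type II receptor, had 1. Of the transducers, Smad2 had 1 region called each way (29.9 and −42.1 points) and Smad3 had 1 called for CEpiLC. The central bases of the Lefty1 region are printed as the strongest shift of the pathway toward SOX2-OFF. They hold no match, on either strand, to any of the 16 motifs searched.

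Near Lefty1, chr1:180924940-180925139, plus strand: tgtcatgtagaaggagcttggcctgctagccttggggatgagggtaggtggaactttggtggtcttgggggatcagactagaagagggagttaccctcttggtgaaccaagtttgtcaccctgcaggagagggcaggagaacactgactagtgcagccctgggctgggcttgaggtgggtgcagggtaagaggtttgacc

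Nodal itself showed no single direction. Its promoter had percentiles of 77.8 in SOX2-OFF, 73.8 in CEpiLC and 78.9 in SOX2-ON. A region 5.38 kb downstream of the start was at 14.2, 53.1 and 44.1. Another, 7.82 kb downstream, was at 33.0, 8.10 and 10.2.

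The early streak and endoderm list had 5 of 94 members called for SOX2-OFF (5.32%) and 4 for CEpiLC (4.26%), with a median shift of 1.77. Its SOX2-OFF share was 9.57% by fold enrichment and 11.4% with a −log10 q of at least 2 in both lists. Mixl1, a homeobox gene of the streak, had 3 members. The promoter was at 84.3 in SOX2-OFF and 83 in CEpiLC. The region 5.67 kb upstream was at 69.8 in SOX2-OFF and 29.2 in CEpiLC, with no SOX2-ON row. The region 9.81 kb upstream was at 67.2, 39.8 and, in SOX2-ON, 9.89. The shifts of the upstream regions, 40.6 and 27.4 points, were under 2 counting errors, of 28.1 and 30.5 points each, and the second was under 1. The first of them holds a GATA match and a CDX/HOX match, shown in capitals, both on the opposite strand.

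Near Mixl1, chr1:180703237-180703436, plus strand: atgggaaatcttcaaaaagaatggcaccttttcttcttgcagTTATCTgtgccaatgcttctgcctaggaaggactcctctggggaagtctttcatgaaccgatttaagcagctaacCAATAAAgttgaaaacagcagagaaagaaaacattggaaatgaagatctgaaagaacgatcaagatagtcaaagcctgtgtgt

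Eomes, the T-box factor of early streak and definitive endoderm, had 10 members, none past 25 points. The largest shift was 20.2 points, 20042 bp upstream. Gata4 had regions called in both directions, at 40.8 points (34.1 kb upstream) and −44.1 points (1.75 kb downstream). Foxa2, an endoderm forkhead gene, had 17 members and 1 call, of −39.9 points, while its promoter stood at 88.3 in SOX2-OFF and 88.5 in CEpiLC.

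The caudal epiblast list had 4 of 92 members called for SOX2-OFF (4.35%) and 5 for CEpiLC (5.43%), with a median shift of −1.57. T, the T-box gene of streak and notochord, had 10 members with shifts from −17.6 to 13.5 points. Its promoter was at 84.8 in SOX2-OFF, 81.2 in CEpiLC and 67.3 in SOX2-ON, and the region 24.9 kb upstream at 91.3, 93.4 and 72.6. At Cdx2 the promoter was at 81.6, 86.5 and 75.2, and at Cdx1 at 82.2, 84.3 and 66.0. Nkx1-2, a homeobox gene of the caudal epiblast, had its promoter at 68, 76.2 and 62.8. None of these reached a shift of 25 points between SOX2-OFF and CEpiLC, and the SOX2-ON percentiles rest on the smaller base of covered members. The called regions lay near Greb1, with −52.4 and −44.9 points, near Wnt8a, Wnt5a and Sp8 (−27.5 to −33.6) and, in the other direction, near Cyp26a1, a retinoic acid-degrading enzyme, with 45.8 and 31.1, near Meis3 with 32.9 and near Fgf8 with 26.1 (55.9 when ranked by fold enrichment). The Greb1 region of −52.4 points, 3.77 kb downstream of the start, was at 72.1 in CEpiLC and 19.7 in SOX2-OFF, with no SOX2-ON row, and was 2039 bp wide in CEpiLC and 877 bp in SOX2-OFF.

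Paraxial mesoderm genes had 1 of 55 members called for SOX2-OFF and 2 for CEpiLC. The former lay 40.2 kb from Snai1, a repressor of epithelial genes, with percentiles of 65.5 in SOX2-OFF, 14 in CEpiLC and 65.0 in SOX2-ON. The latter lay near Foxc1 (−40.7 points) and Msgn1 (−25.7). Tbx6 had its promoter only, at 71, 64 and 66 in SOX2-OFF, CEpiLC and SOX2-ON. The Msgn1 promoter was at 75 in SOX2-OFF, 69 in CEpiLC and 3.91 in SOX2-ON. SOX2-ON was thus the list that stood apart at the promoter of Msgn1, a gene of the presomitic mesoderm. It did not do so 11.6 kb downstream of the start, where the percentiles were 65.7, 64.6 and 58.0 in the same order.

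Of the Hox genes, which lay partly on chromosomes left out, 18 had members. Of 48 regions, 1 was called for SOX2-OFF, near Hoxc6, and 3 for CEpiLC, near Hoxd9 (−46.0), Hoxd4 (−41.8) and Hoxc11 (−28.4). The Hoxd4 region was a promoter region, 465 bp from a start, at 29.0 in SOX2-OFF and 70.8 in CEpiLC.

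Formative epiblast and anterior neural genes had few calls toward SOX2-OFF. In the formative list, 0 of 98 members were called for SOX2-OFF and 5 (5.10%) for CEpiLC: near Etv5, Lef1, Dnmt3b and Sox2. The largest shift toward SOX2-OFF there was 24.7 points, just under the threshold, and ranking by fold enrichment put 5.10% past it. The Sox2 promoter was at 84.1 in SOX2-OFF, 83 in CEpiLC and 83.5 in SOX2-ON, but reads of the transgene's coding sequence cannot be told apart from the native gene. Among its 10 members, 1 was called, 41.7 kb downstream, at 21.9 in SOX2-OFF, 53.4 in CEpiLC and 20.1 in SOX2-ON. Anterior neural genes had 1 of 91 called for SOX2-OFF, near Olig2, and 5 (5.49%) for CEpiLC, near Lhx5, Neurog1 and Six3, with shifts of −26.0 to −45.7; by fold enrichment both shares were 4.40%. Naive pluripotency genes were called in both directions, at 7 and 6 of 96 members. The largest were near Prdm14 (44.7 points) and within Esrrb (−60.4 points, 18.4 kb downstream of the start). Of this list, 25 members (26.0%) were at least 2-fold wider in SOX2-OFF, against 14.1% of all and 13.6% of those within 100 kb. In the WNT response list this share was 19.5%. A reference list departed in width as well: of housekeeping members, 3.17% were wider in SOX2-OFF and 17.5% in CEpiLC. The CEpiLC share within 100 kb was 6.32%.

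WNT response genes were balanced, with 5 of 118 members called each way. Near Lef1, a nuclear WNT effector that is also on the formative list, 2 regions were called for CEpiLC, at −42.3 and −37.0 points. Fzd10 and Fzd7, WNT receptor genes, had regions called in both directions.

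The lists meant as references gave the measure of what any list can show. Housekeeping genes had 3 of 63 members called for SOX2-OFF and 6 (9.52%) for CEpiLC, 3 of them near Ywhaz and 1 at a start of Rpl3. The latter share was 2% with a −log10 q of at least 2 in both lists. Fibroblast genes, the markers of feeder cells, had 3 of 46 called in each direction, 6.52%, and a median shift of −0.47 points, so no shift of the feeder list as a whole was seen. Over the 11 lists the share called ran from 0% to 10.8% for SOX2-OFF and from 3.64% to 9.52% for CEpiLC, and housekeeping genes held the highest CEpiLC share.

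**Figure D5:**
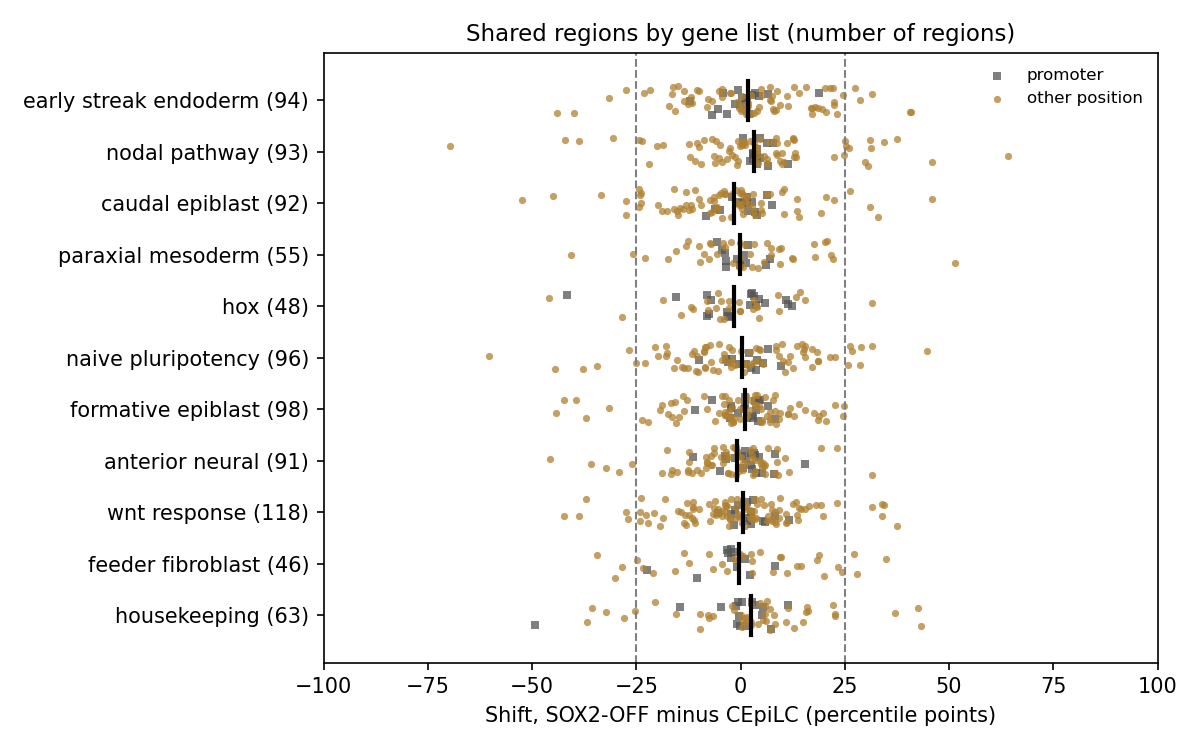
Each point is a shared region assigned to a gene of the list (x axis, shift in percentile points; squares, promoters; circles, other positions; vertical jitter only), with the number of regions in brackets; thick bars are medians and dashed lines mark 25 points. Medians lie between −1.57 and 3.27 in every list, and the farthest points are the Acvr1b region (−69.7) and the Lefty1 region (64.1) of the nodal pathway.

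Some genes gathered several calls. In each direction 17 genes had at least 4. They are the extremes of 13924 genes with a member within 100 kb. Of those members, 5.88% were called for SOX2-OFF and 5.72% for CEpiLC, and genes with many members have more room for calls. On the SOX2-OFF side the first 5 were Zeb2, a repressor of epithelial genes, Spata13, Smad7, Bcar3 and Myo10, with 5 called regions each. Zeb2 had 17 members, of which 13 had a shift above 0 and 2 were called for CEpiLC. Myo10 had 25 members, 18 of them above 0, and none called for CEpiLC. Spata13 had 13 members, with 2 called for CEpiLC, and Bcar3 had 18, with none. Promoters of these 5 genes had shifts of −0.80 to 5.85 points.

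On the CEpiLC side they were Dynlt1b, Btbd9, Prl2c3, Auts2 and C530008M17Rik. Dynlt1b, a dynein light chain gene, stood out. Of its 22 members, between 6391798 and 6513760 on chromosome 17, 21 had a shift below 0, with a median of −19.6, and 6 were called. Prl2c3, a gene of the prolactin family, had 26 of 30 members below 0 on chromosome 13, with a median of −13.2 and 5 called. Its promoter regions had a median shift of −27.7. Both genes belong to families with similar copies nearby, and how reads were placed among the copies was not tested. Btbd9 and Auts2 had 14 and 16 of 26 members below 0.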

How the data were processed

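ATAC-seq was carried out on 50000 cells a sample with at most 12 PCR cycles. Following the study's methods, the authors trimmed reads, aligned them to mm10 with BWA, discarded those of mitochondria and ran MACS2 in broad mode, giving 1 list a sample. No control library was described, and how multiply mapped reads were treated is not given in the sources used here. The deposited columns used were the fold enrichment (a ratio) and the −log10 p and −log10 q of each row, which in broad peaks are averages along the row. The total number of reads was not analysed here.

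Lists were merged and intersected with bedtools 2.31.1 and analysed in Python 3.11.15 (pandas 2.3.3, numpy 2.4.6, scipy 1.17.1). Chromosomes 6, 8 and 11 were left out by the rule that defined the members. Pileups were obtained by inverting a Poisson tail for the fold enrichment and p. Widths, percentiles and pileups were tested on simulated data. Genes were GENCODE M21, and bases and repeat masking came from GRCm38.p6. Each group had 1 sample, so no test was possible and no p-value of a comparison is given; intervals over regions cover counting error only and regions are not replicates. Named regions were the 10 largest shifts per direction at or above the 75th percentile, the 5 largest width ratios, the 2 largest called shifts per list and direction, 12 loci, and genes with at least 4 calls (first 5). Lefty1, Foxa2 and Acvr1b were looked at beyond this after their values were seen, as were the shared stretches and masking. The members, gene lists, motifs and thresholds were chosen with earlier results of these data known.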

Additional observations from a re-analysis of the deposited data

How the results depend on the processing

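No paired analysis was possible because neither SOX2-OFF nor CEpiLC had a second sample. The counts of calls were 3679 (rank, SOX2-OFF), 3481 (rank, CEpiLC), 8086 (width, SOX2-OFF) and 3672 (width, CEpiLC). Ranking by fold enrichment, ranking within each chromosome, 1 row in each list, an overlap of 50% between the strongest rows, the widest row, no centring of widths and all of chromosomes 1 to 19 left each count they bore on within 1.5 times. Ranking among all rows of each list gave 3721 and 5316 rank calls. A −log10 q of at least 2 in both lists gave 2120 and 2003, and one of at least 5 gave 591 and 793, with 1022 and 186 width calls. A shift of 10 points gave 11604 and 12147, one of 40 points 872 and 676, and a width ratio of 1.5-fold 13737 and 7769. Of alternatives chosen after seeing the data, a shift over 2 counting errors gave 260 and 362, and leaving out regions over 50% masked left both rank counts within 1.5 times. No shift of a named region changed its sign in 373 repeats, but 3 were counted as moved. So were 7 of 64 repeats of motif differences and 3 of 4 repeats of the promoter shares. Of 88 list shares, 8 left the interval of their main value, among them the 10.8% of the NODAL list, which became 3.70% with a −log10 q of at least 2; fewer regions were then ranked. The differences of CDX/HOX, AP-1, TCF/LEF and GATA shares kept their sign under each of the 4 alternatives tried. Limits are the single sample a group and the counting error of weak regions, which was larger in CEpiLC than in SOX2-OFF at the 10th, 25th, 50th, 75th and 90th percentiles.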
